A study of Rattus norvegicus with 4 samples.

Results

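The respiratory chain and ATP synthase genes were followed in Rat1 fibroblasts, an immortalized rat line, with and without an inducible inhibitor of Myc. The members were all probe sets of the array whose single annotated gene symbol begins with Nduf, Sdha to Sdhd, Uqcr, Cox plus a digit, or Atp5, or is Cyc1 or Cycs. This rule, which uses names and no measured value, gave 102 of 8740 probe sets, for 56 genes. Rat1-control cells carried an empty retrovirus. Rat1-Omomer cells carried a retrovirus for Omomer, the Myc-binding miniprotein Omomyc fused to a tamoxifen-responsive part of the estrogen receptor, so that 4-OHT switches it on. Each condition was measured on 1 array: Rat1-control 0 min, Rat1-Omomer 0 min, Rat1-control 90 min and Rat1-Omomer 90 min, after 48 h in 0.1% serum followed by 10% serum for the stated time. All 4 cultures received 4-OHT, so that no array holds Rat1-Omomer cells with the fusion protein off. The labels place 4-OHT in the whole starvation and the methods shortly before serum. The transfection label of the Rat1-Omomer 0 min and Rat1-control 90 min samples names the other cell line; their titles were followed. With 1 array per condition there is no spread between cultures, and no test was made: each fold is the ratio of 2 single arrays.

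The respiratory chain lies in the inner mitochondrial membrane. Complex I takes electrons from NADH and complex II from succinate, and both pass them through a quinone to complex III, then through cytochrome c to complex IV, which reduces oxygen. Complexes I, III and IV pump protons, and ATP synthase, or complex V, uses the returning protons to make ATP. Most subunits are encoded in the nucleus and imported, whereas a few core subunits of complexes I, III, IV and V come from the mitochondrial genome. Nuclear respiratory factors of the NRF1 and ETS families are known regulators of the nuclear genes, and Myc is known to bind many of them.

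Complex I was covered by 46 probe sets for 26 genes, complex II by 1 for Sdha, complex III by 7 for 4 genes, complex IV by 26 for 12 genes and ATP synthase by 13 for 9 genes. The remainder measured Atp5if1, the inhibitor of ATP synthase, with 4 probe sets, the assembly factors Ndufaf3 with 3 and Sdhaf2 with 1, and Cox6c-ps1, a pseudogene, with 1. Cycs, encoding cytochrome c, had no probe set with a single symbol. Ndufa4 is counted with complex I by its name, although the protein is now placed in complex IV. Many members stand in pairs ending in _at and _g_at, which share a target sequence and are not independent measures of the gene.

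The region before the transcription start was read for 47 of the 56 genes, as 250 bases from RefSeq (GRCr8), and searched on both strands for 3 short motifs: the E-box CACGTG bound by Myc and Max, the NRF1 core GCGCATGC, and the ETS core CCGGAAG. The E-box was found in 2 of the 47 genes (4.26%), against 5.79% of 27457 genes. The NRF1 core was found in 2, Atp5po and Ndufa6 (4.26%), against 2.38%. The ETS core was found in 9 (19.1%), against 7.74%: Atp5f1a, Atp5pf, Cox5b, Cox8a, Ndufa6, Ndufs1, Ndufs8, Sdhaf2 and Uqcrc2. A match is a run of letters and not a measured binding site, and no binding was measured on these arrays. The regions of 4 genes are shown, those of Atp5pb and Ndufb3 because they hold the E-box, and those of Atp5pf and Atp5po because these subunits of the same stalk of ATP synthase differed in opposite directions on the Rat1-Omomer 90 min array. Capitals mark the motifs: the E-box in Atp5pb and Ndufb3, the ETS core in Atp5pf, and a pair of overlapping NRF1 cores on opposite strands in Atp5po. The region of Atp5pb is chr2:196123738-196123987 on the minus strand, that of Ndufb3 chr9:67623167-67623416 on the plus strand, that of Atp5pf chr11:37375102-37375351 on the minus strand and that of Atp5po chr11:44657484-44657733 on the minus strand.
Atp5pb: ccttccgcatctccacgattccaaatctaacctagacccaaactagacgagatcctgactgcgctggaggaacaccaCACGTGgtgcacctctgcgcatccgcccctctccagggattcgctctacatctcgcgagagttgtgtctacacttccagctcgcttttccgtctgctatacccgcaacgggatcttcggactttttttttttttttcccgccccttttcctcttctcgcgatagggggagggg
Ndufb3: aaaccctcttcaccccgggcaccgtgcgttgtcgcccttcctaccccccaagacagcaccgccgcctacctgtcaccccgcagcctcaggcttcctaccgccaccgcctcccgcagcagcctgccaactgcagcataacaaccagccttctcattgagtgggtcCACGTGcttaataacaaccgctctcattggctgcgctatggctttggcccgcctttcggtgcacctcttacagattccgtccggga
Atp5pf: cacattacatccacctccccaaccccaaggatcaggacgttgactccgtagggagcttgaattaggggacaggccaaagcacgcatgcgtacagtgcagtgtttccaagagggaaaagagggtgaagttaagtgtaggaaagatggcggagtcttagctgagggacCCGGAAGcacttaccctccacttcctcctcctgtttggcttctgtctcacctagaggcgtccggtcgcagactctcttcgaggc
Atp5po: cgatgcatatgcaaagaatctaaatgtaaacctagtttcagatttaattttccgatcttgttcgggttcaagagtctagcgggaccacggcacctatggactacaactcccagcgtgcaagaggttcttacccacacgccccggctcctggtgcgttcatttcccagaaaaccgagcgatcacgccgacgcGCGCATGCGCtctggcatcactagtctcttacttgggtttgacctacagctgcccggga

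The values are MAS 4 average differences, a linear intensity of perfect match over mismatch probes that can be negative. Values under a floor of 1048, which is 2 times a noise SD of 524 estimated from the negative values, were set to the floor; a fold against a floored value is a lower bound, and where both values of a ratio are floored no fold is given. Shares of members or of all probe sets that were higher, lower or past 3-fold are of those with a fold in that comparison. Of the 102 members, 73 lay above the floor on all 4 arrays, 11 on some and 18 on none, and 53 of the 56 genes had a probe set above it. The 3 genes without one were Cox5a, Cox8b and Cox6c-ps1. All 24 probe sets of 10 fibroblast marker genes lay above the floor on every array, with sums from 768512 to 1040211, and none of 6 epithelial and 4 endothelial probe sets did so on any array. Of the blood, muscle and liver markers, 2 of 7, 3 of 11 and 2 of 6 probe sets exceeded the floor on some array and none on all 4; muscle sums ranged from 3372 to 5860. The Rat1-Omomer 90 min array stands apart. Its noise alone gives a floor of 1228, against 895 to 1090 on the others, and its 99th percentile was 72057, against 43961 to 54800.

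One further property of the arrays touches many members. Probe sets whose identifiers begin with rc_AA79, rc_AA80, rc_AA85, rc_AA87 or rc_AA89 were designed from 5 series of expressed sequence tags. They were low as a body on the Rat1-Omomer 90 min array. Of the 963 with a fold, 28.9% were at least 3-fold lower than in the Rat1-control 0 min culture, against 4.36% of the 3257 others with a fold. The 5 series were chosen with earlier results of these data known, so that this contrast is not independent of the choice. The cause of the low values was not tested. Members of these 5 series, 22 probe sets for 17 genes, are therefore given apart from the 80 members outside them, which cover 45 genes, and 6 genes have both. Sdha, Sdhaf2, Cyc1, Atp5pb and 7 subunits of complex I (Ndufa3, Ndufa9, Ndufb1, Ndufb3, Ndufb11, Ndufc2 and Ndufs7) were measured in the 5 series only. No complex IV probe set belongs to them.

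In starved cells, the respiratory chain genes of both lines had similar levels, with a tilt towards higher values in Rat1-Omomer cells that was clearest in complex I. None of the 82 members with a fold differed 3-fold between Rat1-Omomer and Rat1-control cells at 0 min, against 0.754% of all probe sets. Outside the 5 series, 49 of 65 members were higher in Rat1-Omomer cells, against 51.2% of all such probe sets, and the median log2 ratio was 0.15, against 0.01. In the 5 series, 12 of 17 members were higher, against 53.4%, with a median of 0.27, against 0.02. For comparison, the log2 ratios of probe sets for 1 gene differed with an SD of 0.28 in this comparison over 302 genes, so that single ratios of this size lie within the disagreement between probe sets. In RNA of a whole culture, fewer cells with a transcript and less of it per cell cannot be told apart.

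Among the larger complexes, complex I had the highest share of such members. Of its members outside the 5 series, 20 of 23 were higher in Rat1-Omomer at 0 min, with a median log2 ratio of 0.25, and in the 5 series 9 of 11 were, with a median of 0.27. With the arrays scaled to equal medians the count outside was also 20 of 23, and with quantile normalization it was 21 of 23. In complex IV 14 of 21 probe sets were higher, with a median of 0.02, and in ATP synthase 7 of 12, with a median of 0.02. Complex III had 4 of 5 higher, with a median of 0.09. The difference between complexes was not tested.

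The largest single ratios at 0 min belonged to complex I and complex III. In what follows, 4 values are given in the order Rat1-control 0 min, Rat1-Omomer 0 min, Rat1-control 90 min and Rat1-Omomer 90 min. Ndufv2, an iron-sulfur subunit of the NADH-oxidizing end of complex I, had 6631, 15379, 10107 and 13939, and was 2.32-fold higher in Rat1-Omomer at 0 min. Ndufa8, an accessory subunit of complex I, had 3984, 8217, 5056 and 6550, a 2.06-fold difference. For these genes the Rat1-control 0 min array is the lowest of the 4. In the 5 series, Ndufa9, an accessory subunit near the quinone site, had 2254, 6481, 3938 and 6579, and was 2.88-fold higher. Cyc1, the cytochrome c1 of complex III, had 4591, 10528, 9917 and 15310, and was 2.29-fold higher. Each of these 4 genes has 1 member probe set, so that no other one bears on them. Ndufb8 has a dim probe set, rc_AA999168_at, with 449, 2390, -312 and -2708, above the floor on the Rat1-Omomer 0 min array alone and at least 2.28-fold higher there; its brighter probe set gave a 1.05-fold ratio in the same comparison.

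**Figure D1:**
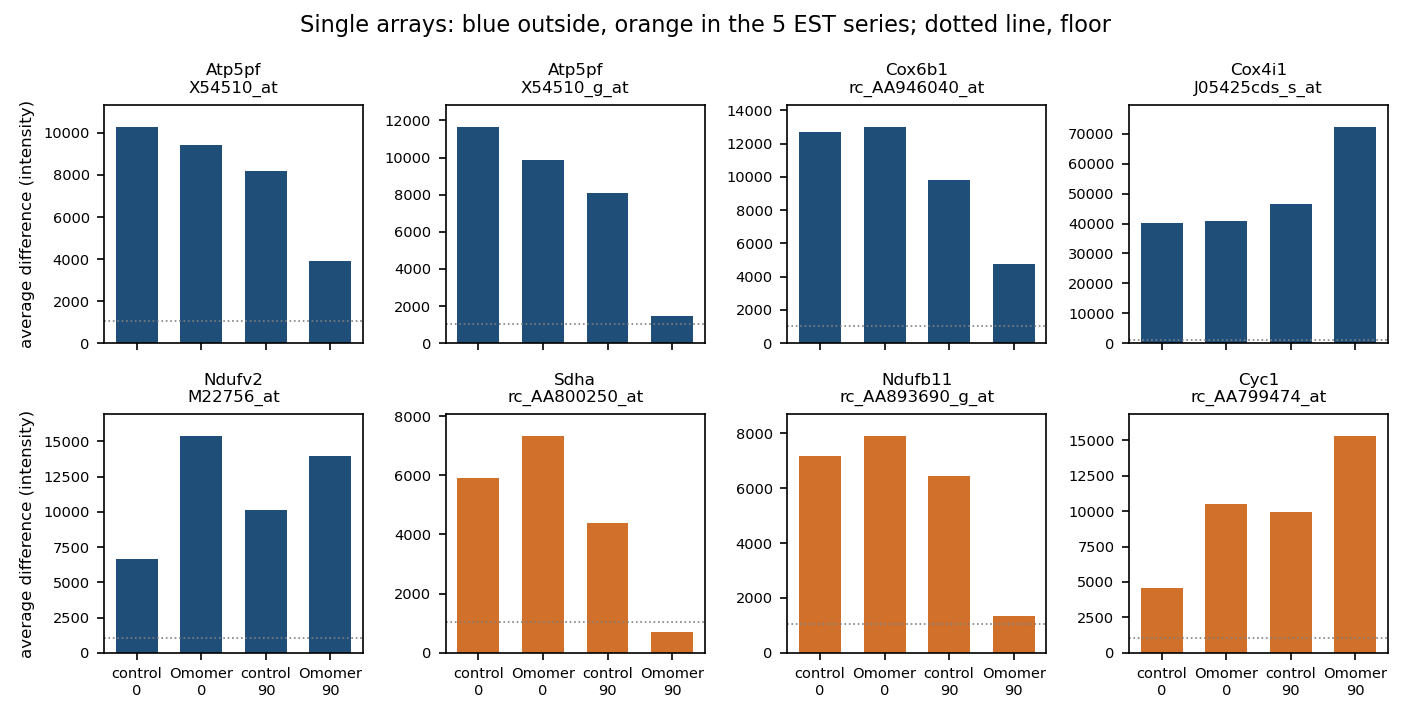
Bars give the average difference (linear intensity, from 0) of 8 member probe sets on each of the 4 arrays, 1 array per condition and no error bar. Atp5pf, Cox6b1, Sdha and Ndufb11 are lowest on the Rat1-Omomer 90 min array, Cox4i1 and Cyc1 are highest there, and Ndufv2 is lowest on the Rat1-control 0 min array.

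Differences with serum alone were small in these genes. In Rat1-control cells, 1 of 79 members differed at least 3-fold between 90 min and 0 min, against 3.74% of all probe sets. Outside the 5 series the median log2 ratio was -0.04, the same as over all such probe sets, with 33 members lower and 29 higher, and its sign turned to 0.05 when the arrays were scaled to equal medians. In the 5 series it was -0.15, against -0.17. The SD between probe sets of 1 gene was 0.29 in this comparison.

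The member past 3-fold was Ndufa3, an accessory subunit of complex I in the 5 series. It had 4482, 5404, 1443 and 1185, a 3.11-fold lower value in serum-treated Rat1-control cells, and the last value lies under the floor of its own array. Cox6a2, the heart and skeletal muscle form of a complex IV subunit, was 2.64-fold lower at 90 min in the same cells by 1 probe set (X12554cds_s_at), with 3198, 3204, 1210 and 4740. Cyc1 was 2.16-fold higher. The Rat1-control 90 min array is the lowest of the 4 for Cox6a2, whereas Ndufa3 was low on both 90 min arrays.

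**Figure D2:**
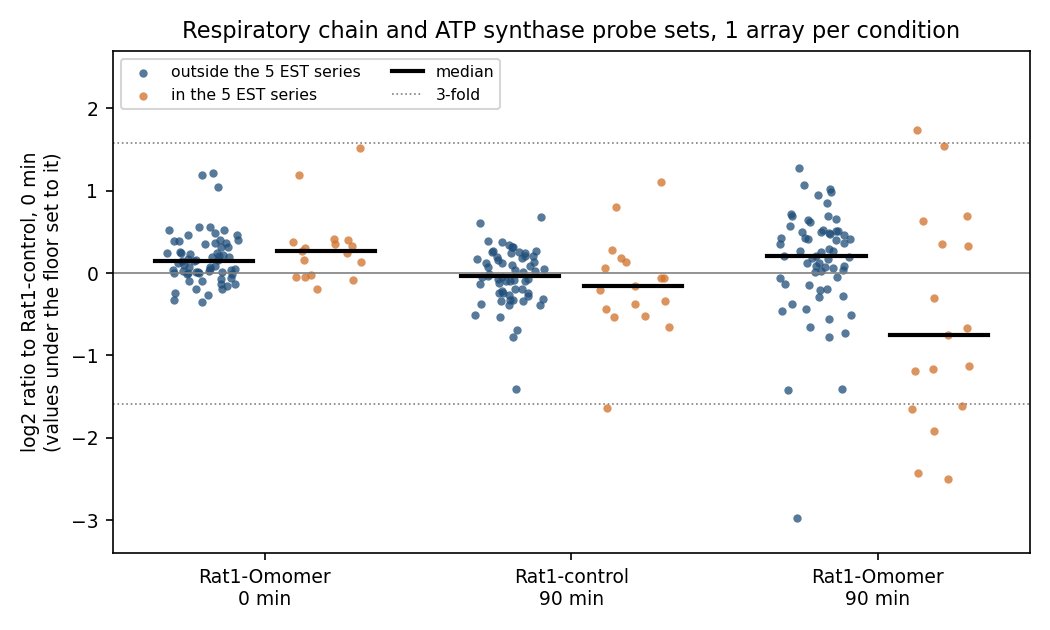
Each point is 1 member probe set; the vertical axis is the log2 ratio to the Rat1-control 0 min array for Rat1-Omomer 0 min, Rat1-control 90 min and Rat1-Omomer 90 min, with blue points outside the 5 series, orange points in them, black bars at the medians and dotted lines at 3-fold. In the Rat1-Omomer 90 min column the median is 0.21 outside and -0.75 in the 5 series. The other columns also hold single points far from 0, among them Ndufa9 at 1.52 for Rat1-Omomer 0 min. Ndufa3 lies at -1.64 for Rat1-control 90 min.

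On the Rat1-Omomer 90 min array, members outside the 5 series had median ratios somewhat below those of all probe sets outside them, with a few subunits apart from the rest. Against the Rat1-control 0 min culture, 1 of 65 was at least 3-fold lower, against 4.36% of all probe sets outside, and none was at least 3-fold higher, against 3.38%. Against the Rat1-Omomer 0 min culture, 1 of 67 was lower (3.7% of all outside) and none higher (3.55%). Against the Rat1-control 90 min culture, 1 of 63 was lower (3.3%) and 1 was higher (2.57%). The median log2 ratios were 0.21, 0.12 and 0.26 in these 3 comparisons, against 0.25, 0.23 and 0.32 over all probe sets outside, and the middle one turned to -0.03 with quantile normalization. The comparisons share arrays and do not support each other. The SD between probe sets of 1 gene outside was 0.61, 0.59 and 0.59 over 255 genes, more than in the comparisons without this array, and for the 15 member genes with several probe sets outside it was 0.39, 0.41 and 0.37.

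ATP synthase held the lowest member outside the 5 series and several high ones. This lowest member was Atp5pf, coupling factor 6 of the peripheral stalk, by 1 of its 2 probe sets. Its probe set X54510_g_at had 11671, 9856, 8088 and 1481, and was 7.88-fold lower in Rat1-Omomer at 90 min than in the Rat1-control 0 min culture and 5.46-fold lower than in the Rat1-control 90 min culture. X54510_at of the same gene had 10299, 9430, 8176 and 3888, 2.65-fold and 2.10-fold lower in these comparisons. The Rat1-Omomer 90 min array is the lowest for both probe sets, and the sizes of their ratios differ although they share a target. Atp5pd, subunit d of the same stalk, had 20061, 26222, 22514 and 12699, 2.06-fold lower in Rat1-Omomer at 90 min than at 0 min.

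The other stalk subunit measured outside the 5 series went the other way. Atp5po, which joins the stalk to the catalytic head and confers oligomycin sensitivity, had 17154, 15010, 10667 and 24055 by D13127_at and 19862, 25374, 20018 and 30433 by D13127_g_at. It was 2.26-fold and 1.52-fold higher in the Rat1-Omomer than in the Rat1-control 90 min culture, and both probe sets are highest on the Rat1-Omomer 90 min array. Against the Rat1-Omomer 0 min culture the second ratio, 0.26 on the log2 scale, turned to -0.05 with quantile normalization.

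The alpha, beta and gamma subunits of the catalytic head were higher on the Rat1-Omomer 90 min array, on which all probe sets outside had medians of 0.25 to 0.32 against the 2 Rat1-control cultures. Atp5f1b, the catalytic beta subunit and the brightest member of ATP synthase, had 30483, 32562, 36802 and 49418, a log2 ratio to Rat1-control at 0 min of 0.70 that was 0.33 with quantile normalization. Atp5f1a, the alpha subunit, had 14448, 14777, 11545 and 20695, 1.79-fold higher than in the Rat1-control 90 min culture. Atp5f1c, the gamma subunit, which turns inside the head, had 9583, 12320, 9918 and 15172, a 1.53-fold difference. These 3 subunits were each highest on the Rat1-Omomer 90 min array. Atp5f1d, the delta subunit, had 6219, 6421, 7339 and 7121 by U00926_at and 7992, 7975, 7948 and 8673 by U00926_g_at, with no ratio above 1.18-fold. Atp5f1e, the epsilon subunit, had 18455, 18497, 14665 and 23661 by rc_AI171844_at and 21411, 20051, 19955 and 24709 by its _g_at partner, whose log2 ratio to Rat1-control at 0 min turned from 0.21 to -0.06 with quantile normalization.

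Atp5if1 is the protein that blocks ATP hydrolysis by ATP synthase when the proton gradient fails. It was higher on the Rat1-Omomer 90 min array by the probe sets above the floor outside the 5 series. D13122_f_at had 16040, 23721, 14063 and 38915, 2.77-fold higher than in the Rat1-control 90 min culture, and M35300_f_at had 4345, 6405, 4657 and 8592, 1.84-fold higher. The _f_at ending marks probes that can match several members of a family. Its remaining bright probe set, rc_AA891873_f_at of the 5 series, had 17183, 21506, 11852 and 13904, 1.17-fold higher than in the Rat1-control 90 min culture and 1.24-fold lower than in the Rat1-control 0 min culture. The last of its probe sets, D13122_i_at outside the 5 series, lay under the floor on all arrays (86, 200, -386 and -1314). On this gene the Rat1-Omomer 90 min array is thus the highest by 2 of the probe sets above the floor and not by rc_AA891873_f_at.

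Complex IV, cytochrome c oxidase, was covered outside the 5 series alone and had the brightest values. Against the Rat1-control 0 min culture, 13 of 21 probe sets were higher on the Rat1-Omomer 90 min array and 8 lower, with a median log2 ratio of 0.17, near the 63.8% higher and the median of 0.25 over all probe sets outside. With median scaling 13 were also higher, and with quantile normalization 10 were higher and 11 lower, with a median near 0. The sizes of the ratios of its bright members, and for Cox8a the direction, depend on the scaling. Cox4i1, the common form of the largest nuclear-encoded subunit, had 40205, 40718, 46430 and 72417 by J05425cds_s_at, 42293, 40598, 50319 and 65892 by rc_AA818226_s_at and 22872, 26652, 25104 and 20006 by X54081mRNA_i_at. The first 2 are highest and the other is lowest on the Rat1-Omomer 90 min array, and the first ratio to Rat1-control at 0 min, 0.85 on the log2 scale, was 0.25 with quantile normalization. Cox8a, a small subunit and the brightest member of complex IV, had 48031, 43749, 50441 and 64317 by rc_AI102505_g_at, a log2 ratio of 0.42 that turned to -0.20 with quantile normalization. Its 3 other probe sets had 25580, 26066, 24408 and 30741 (rc_AI102505_at), 44630, 45205, 50520 and 50151 (M28255_s_at) and 31321, 27435, 26476 and 33240 (L48209_s_at), with ratios of at most 1.26-fold in any comparison.

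Cox6b1 stood apart within complex IV. It encodes a subunit on the intermembrane side of the enzyme. It had 12728, 13027, 9805 and 4771 by rc_AA946040_at, 2.67-fold lower on the Rat1-Omomer 90 min array than in the Rat1-control 0 min culture and 2.06-fold lower than in the Rat1-control 90 min culture. Its second probe set, rc_AI104035_s_at, had 23938, 23822, 22398 and 14421, 1.66-fold and 1.55-fold lower. Both are lowest on the Rat1-Omomer 90 min array. The 2 probe sets thus give 1 direction there, also with quantile normalization (-1.35 and -0.90 on the log2 scale against the Rat1-control 0 min culture). The 3 other arrays lie close together by rc_AI104035_s_at. By rc_AA946040_at the value of Rat1-control cells was also 1.30-fold lower at 90 min than at 0 min.

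Cox5b, Cox6c, Cox7a2l and Cox7b differed less. Cox5b had 11830, 13503, 13162 and 12309 by D10952_i_at and 19252, 21514, 23115 and 17595 by rc_AI229620_s_at. Cox6c had 4371, 3628, 3755 and 3941 by M27466_at, and values close to the floor by M27467_at (1023, 1056, 1214 and 1263). Cox7a2l, which helps complexes III and IV to join, had 7761, 8908, 7057 and 10363 by rc_AI172452_at and 5976, 7087, 6511 and 9705 by rc_AI232307_at. Cox7a2l was highest on the Rat1-Omomer 90 min array by both, by 1.47-fold and 1.49-fold against the Rat1-control 90 min culture. Cox7b had 8375, 10034, 9894 and 6483, and was lowest there, by 1.53-fold.

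Several complex IV subunits have tissue forms, and in these fibroblasts the common forms were measured on every array. Cox6a1, the common form, had 35095, 39224, 41930 and 46731 by rc_AI104520_s_at and 34285, 37296, 39218 and 47347 by X72757_g_at, whereas X72757_at, the partner of the latter, had 1498, 1178, 1535 and 1233. Both bright probe sets are highest on the Rat1-Omomer 90 min array, but against the Rat1-Omomer 0 min culture their log2 ratios of 0.25 and 0.34 turned to -0.24 and -0.11 with quantile normalization. Cox6a2, the muscle form, lay under the floor on all arrays by X72758mRNA_at (-647, -501, -551 and -837) and rc_AI171644_s_at (212, 367, -1248 and 82). By X12554cds_s_at alone it exceeded the floor, and its ratio of 3.92-fold between Rat1-Omomer and Rat1-control cells at 90 min was the highest of any member outside the 5 series. It rests on the low Rat1-control 90 min value of 1210; against the Rat1-control 0 min culture its log2 ratio was 0.57. Cox8b, the muscle form of Cox8a, was under the floor by both probe sets (-39, -309, -382 and -667 by X64827cds_s_at, and -25, 15, -10 and -293 by U40836mRNA_s_at). Cox4i2, a form known from lung, had 5936, 4735, 4928 and 4387. Of the 11 muscle marker probe sets 8 lay under the floor on all arrays, and the highest, X15939_f_at for Myh7, had 793, 747, 2060 and 2348. Their part in the Cox6a2 value was not tested.

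**Figure D3:**
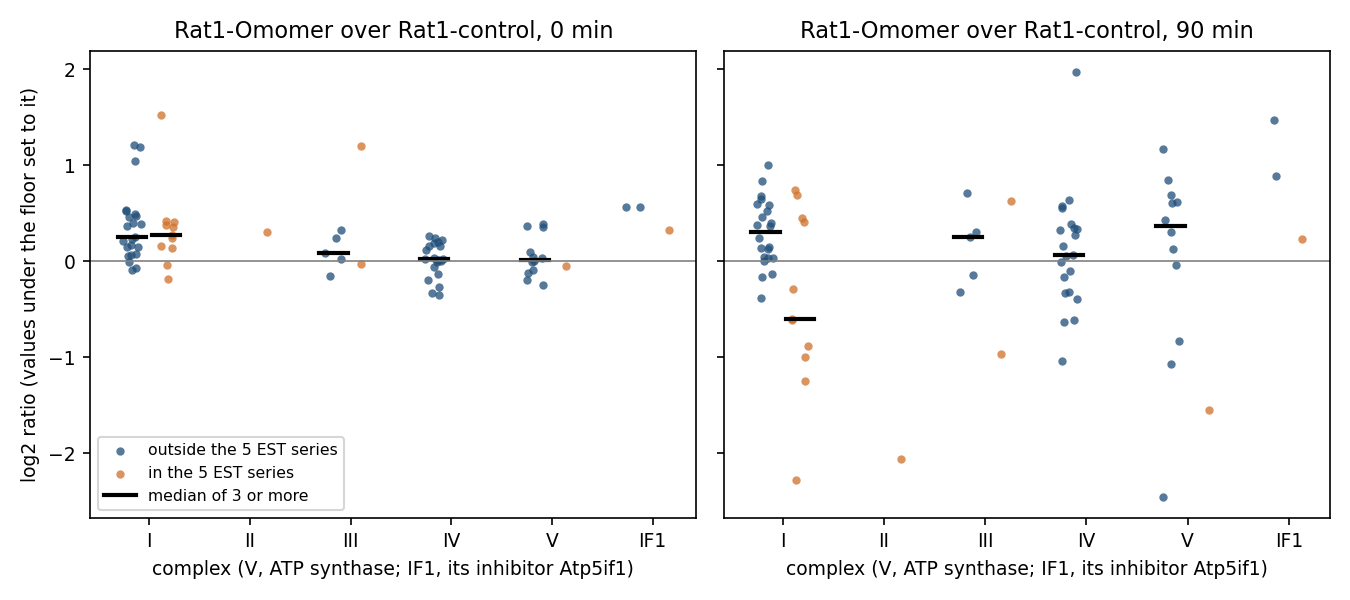
Points are member probe sets outside and in the 5 series, grouped by complex, with the log2 ratio of Rat1-Omomer over Rat1-control cells at 0 min and at 90 min on the vertical axis. At 0 min most complex I points lie above 0 (20 of 23 outside), and at 90 min the spread is wider, with Atp5pf lowest at -2.45 and Cox6a2 highest at 1.97.

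Complex I outside the 5 series was higher in the Rat1-Omomer than in the Rat1-control 90 min culture for 19 of 22 probe sets, with a median log2 ratio of 0.30, against 67.0% of all probe sets outside and a median of 0.32. Within Rat1-Omomer cells, 15 of 25 were lower at 90 min than at 0 min, with a median of -0.14, against 36.7% of all probe sets outside and a median of 0.23. With median scaling 13 were lower and 12 higher, with a median of -0.06. With quantile normalization 15 were lower and 10 higher, with a median of -0.05. The difference from the other probe sets was not tested. Ndufb9, an accessory subunit of the membrane arm and the brightest member of complex I, had 23726, 34248, 30790 and 48293, 2.04-fold higher on the Rat1-Omomer 90 min array than in the Rat1-control 0 min culture. Its log2 ratio of 1.03 was 0.68 with quantile normalization. Ndufv2 was 2.10-fold higher in the same comparison, and its values in Rat1-Omomer cells, 15379 and 13939, hardly differed between the times. Ndufa6 had 1086, 1528, 998 and 2098 by the dim rc_AI229924_at, at least 2-fold higher in the Rat1-Omomer than in the Rat1-control 90 min culture, and 10672, 11972, 9965 and 10295 by the brighter rc_AA819547_at, a 1.03-fold ratio.

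Other complex I genes with several probe sets gave small differences. Ndufs4, an accessory subunit of the electron-input arm, had 4876, 6365, 4713 and 6779 by rc_AI013297_at and 6054, 7824, 5104 and 5242 by its _g_at partner. Ndufc1 had 7305, 10478, 5786 and 10318 by rc_AI104679_s_at and 2914, 3374, 2233 and 3568 by rc_AI176491_at, with 1.78-fold and 1.60-fold higher values in the Rat1-Omomer than in the Rat1-control 90 min culture. Ndufb6 had 7428, 8746, 9282 and 7100 by rc_AA900199_s_at and 7143, 7105, 9372 and 9628 by rc_AI104528_at, which differ in direction between the lines at 90 min. Ndufa4l2, a relative of Ndufa4 known as a hypoxia gene, reached the floor on the Rat1-Omomer 90 min array alone, with 1385 by AA686870_i_at (427, 797 and 537 on the others) and 1143 by AA684929_f_at (-43, 904 and -401), the latter under the floor of that array. Its remaining 3 probe sets lay under the floor on all arrays. The single-probe-set members Ndufa4, Ndufa5, Ndufb2, Ndufb10 and Ndufs6 lay above the floor on every array, with log2 ratios of at most 0.59 in size. Ndufs1, a core iron-sulfur subunit, and Ndufv3 were above the floor on 2 arrays each, with 565, 1163, 496 and 1351 for Ndufs1 and 1788, 1674, -307 and -1853 for the _g_at probe set of Ndufv3. The assembly factor Ndufaf3 was dim, with 1222, 1523, 1961 and 1290 by U95162_at and 655, 1386, 888 and 727 by rc_AI171562_at.

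In complex III, Uqcrfs1, the Rieske iron-sulfur protein, had 12584, 14902, 12848 and 10298 by M24542cds_g_at, 12486, 13286, 10042 and 9074 by M24542cds_at and 9496, 8557, 7857 and 9730 by rc_AI103911_at. The first 2 are lowest and the other is highest on the Rat1-Omomer 90 min array, within 1.46-fold of any other array. Uqcrc2, a core subunit, had 8414, 10527, 7114 and 8501. Both 90 min values of Uqcrc2 are thus below the 0 min value of Rat1-Omomer cells.

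The members of the 5 series were mostly lower on the Rat1-Omomer 90 min array, as were the 5 series as a whole. Against the Rat1-control 0 min culture, 5 of 17 were at least 3-fold lower, against 28.9% of all probe sets of the 5 series, and 1 was at least 3-fold higher, against 0.831%. Against the Rat1-Omomer 0 min culture, 5 of 17 were lower (29.6%) and none higher (0.725%). Against the Rat1-control 90 min culture, 2 of 17 were lower (27.2%) and none higher (1.01%). The median log2 ratios were -0.75, -0.94 and -0.61, against -0.84, -0.82 and -0.69 over the 5 series. These medians include floored values, which are more common in the series than among the members. Where no culture gave a floored value, 15 members had medians of -0.66, -0.63 and -0.28. The 432 such probe sets of the series had -0.40, -0.36 and -0.24. On this basis the members were lower than the series in all 3 comparisons, and with all folds in the second alone. However, this basis leaves out probe sets under the floor on the Rat1-Omomer 90 min array, among them the series probe sets of Sdha and Ndufs8. It therefore cannot decide whether the members were lower than the series, and the difference was not tested. Against both 0 min cultures the share past 3-fold is close to the background of the series and is no result about respiratory chain genes, and against the Rat1-control 90 min culture it lies below that background.

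Sdha, the flavoprotein subunit of complex II that oxidizes succinate, had 5913, 7325, 4373 and 712. The last value is under the floor, and Sdha was at least 5.64-fold lower there than in the Rat1-control 0 min culture, and at least 4.82-fold with the floor of that array alone. Ndufb11, a membrane-arm subunit of complex I, had 7182, 7899, 6452 and 1333 by rc_AA893690_g_at, 5.39-fold lower than in the Rat1-control 0 min culture. Both were also past 3-fold against the Rat1-control 90 min culture, by at least 4.17-fold and by 4.84-fold. Atp5pb, subunit b of the peripheral stalk, whose upstream E-box is shown above, had 18119, 17550, 17346 and 5915, 3.06-fold lower than in the Rat1-control 0 min culture. Ndufs8, an iron-sulfur subunit of complex I, had 3287, 3665, 2088 and 540 by rc_AA799479_g_at, at least 3.14-fold lower, a bound that is 2.68-fold with the floor of that array alone. In Sdha, Ndufb11 and Atp5pb the first 3 arrays lie far above the last, while Ndufs8 was also lower in Rat1-control at 90 min. Ndufa3, at 1185, was 3.78-fold lower, or at least 3.65-fold with the floor of that array alone, but was already low in Rat1-control at 90 min. Ndufb5, another membrane-arm subunit, had 7426, 9851, 7727 and 3254 by rc_AA893185_at, 3.03-fold lower than in the Rat1-Omomer 0 min culture. For all of these genes the Rat1-Omomer 90 min value is the lowest of the 4.

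Other low members of the 5 series stayed under 3-fold in all comparisons. Uqcr11, a very small subunit of complex III, had 16741, 16464, 14516 and 7457 by rc_AA892462_at, 2.25-fold lower than in the Rat1-control 0 min culture. Ndufc2 had 10207, 8953, 7091 and 4656, a 2.19-fold difference. Ndufc2 was already lower in Rat1-control at 90 min than at 0 min, whereas the Uqcr11 values of the first 3 arrays lie close together. Ndufb8 had 12867, 16753, 14145 and 7661 by rc_AA851403_g_at, 2.19-fold lower than in the Rat1-Omomer 0 min culture. The core subunit Ndufs7, at 3778, 3670, 3625 and 2383, was 1.59-fold lower than in the Rat1-control 0 min culture.

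Not all members of the 5 series were low. Cyc1 was 3.33-fold higher on the Rat1-Omomer 90 min array than in the Rat1-control 0 min culture, the highest ratio of any member in that comparison, and Ndufa9 was 2.92-fold higher. Both were already higher in Rat1-Omomer at 0 min, and the ratios between Rat1-Omomer and Rat1-control cells at 90 min were 1.54-fold and 1.67-fold. Ndufab1, the mitochondrial acyl carrier protein, had 14406, 18449, 16390 and 22338 by rc_AA891651_g_at, 1.55-fold higher than in the Rat1-control 0 min culture. Ndufb1 had 9762, 13027, 11813 and 15724, a 1.61-fold difference. Neither gene was lower on either 90 min array than in the Rat1-control 0 min culture. Ndufb3, whose upstream region also holds the E-box, had 8585, 10184, 6802 and 10939, a 1.27-fold difference. A relation of that motif to the ratios was not tested. Sdhaf2, which helps to attach the flavin to Sdha, had 7230, 6797, 5577 and 9083. These 6 genes were highest on the array on which Sdha and Ndufb11 were lowest.

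Of the 15 members of the 5 series above the floor on all 4 arrays, 8 (53.3%) were lowest and 6 (40.0%) highest on the Rat1-Omomer 90 min array, against 50.5% and 34.7% of all such probe sets of the series. Outside, 13 of 58 (22.4%) were lowest and 28 (48.3%) highest, against 21.6% and 54.2%. These shares are close to their backgrounds in both parts of the array.

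For 6 genes, the brightest probe sets in and outside the 5 series could be set against each other as ratios. Dimmer ones above the floor on some array were left out. These were M35300_f_at of Atp5if1, highest on the Rat1-Omomer 90 min array, and rc_AA999168_at of Ndufb8, under the floor there. The latter was at least 2.28-fold lower there than in the Rat1-Omomer 0 min culture, or 1.95-fold with the floor of that array alone. Against the Rat1-control 0 min culture, the series probe set gave the lower log2 ratio on the Rat1-Omomer 90 min array in 5 of 6 genes, with a median of -0.96 in the series and 0.35 outside. The median difference within a gene was -1.18. In Rat1-Omomer cells at 0 min the series probe set was below the other in 3 of 6 genes, with a median difference of -0.02, and in Rat1-control at 90 min in 4 of 6, with -0.07. Ndufb8 was 1.68-fold lower by its series probe set and 1.43-fold higher by rc_AA964320_at, with 21240, 22290, 20139 and 30338. Uqcr11 was 2.25-fold lower in the series and 1.43-fold higher by rc_AA926137_s_at, with 8785, 8920, 7674 and 12559. For Ndufb8 and Uqcr11 the direction on the Rat1-Omomer 90 min array thus depends on the probe set. The same holds for Atp5if1 against the Rat1-control 0 min culture, 2.43-fold higher by D13122_f_at and 1.24-fold lower by rc_AA891873_f_at. Ndufs8 was lower by both, with 3009, 3341, 2296 and 2053 by AA685112_at, and Ndufb5 was lower by both, with 1486, 1565, 977 and 767 by the dim AA684537_at. Ndufab1 was the exception, with 3882, 5358, 4834 and 4425 by AA799336_at, a 1.14-fold higher value against 1.55-fold in the series. AA799336_at is counted as outside because its identifier lacks the rc_ prefix, although its accession also begins with AA79. For the other 11 genes of the 5 series, Sdha, Cyc1, Ndufb11 and Atp5pb among them, no probe set outside is at hand, so that a low or high value of the gene and of its probe set cannot be told apart.

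**Figure D4:**
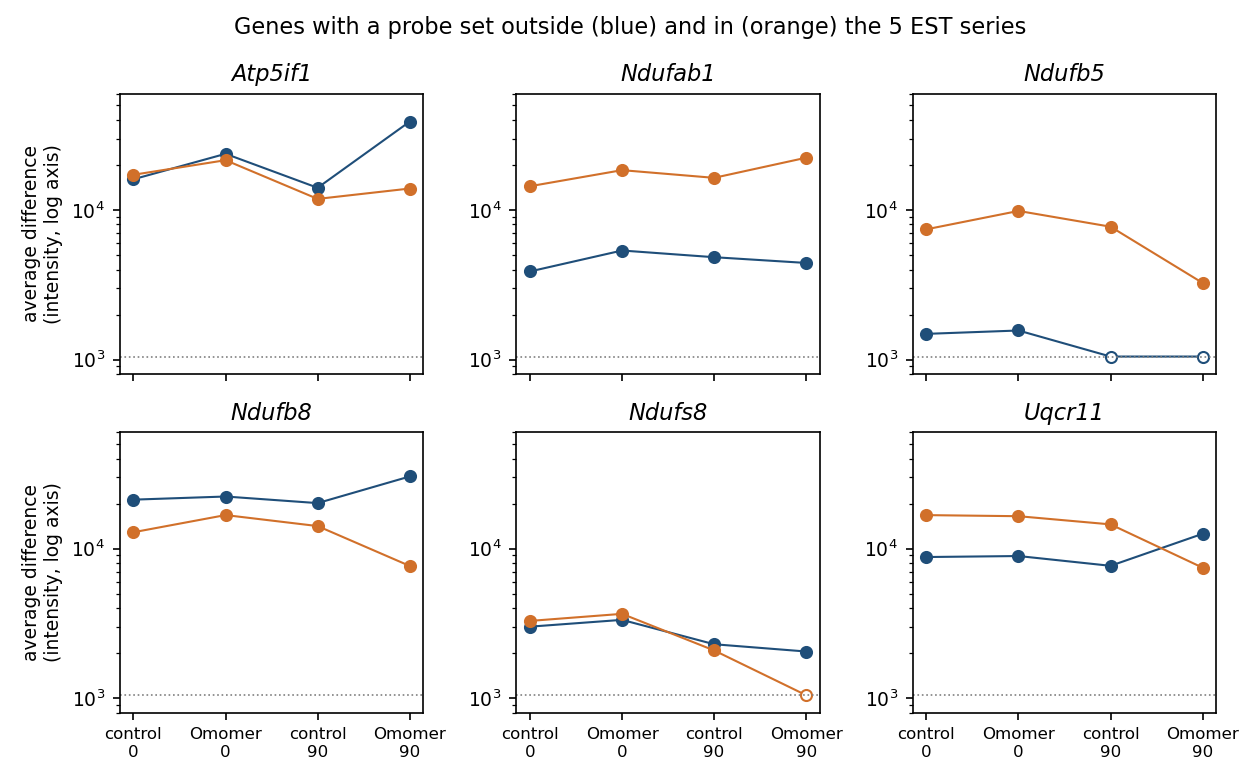
Average differences on a log axis for the 6 genes measured outside (blue) and in (orange) the 5 series, on the 4 arrays in order. The brightest probe set of each kind is drawn, and open symbols are values under the floor of 1048. In Ndufb8 and Uqcr11 the lines separate on the Rat1-Omomer 90 min array, where the outside probe set is highest and the series probe set lowest. In Atp5if1 they also separate there, with the outside probe set highest but the series probe set not lowest.

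Other genes of the pathway, from a list of carriers, electron feeders, assembly factors, regulators and import receptors, showed few large differences. Of the list, 17 genes were measured, by 21 probe sets outside the 5 series and 6 in them, and no gene of the mitochondrial genome was among them. The single 3-fold difference was Gpd2, the glycerol phosphate dehydrogenase that feeds electrons to the quinone, higher in Rat1-control at 90 min than at 0 min. It had 745, 2807, 4323 and 2397 by U83879_at, and the first value lies under the floor, so that this fold is a bound. X78593_at (35, -24, 42 and -165) and X78593_g_at (314, 167, 264 and 402) of the same gene lay under the floor on every array. On the Rat1-Omomer 90 min array, 7 of 12 probe sets outside were higher than in the Rat1-control 0 min culture and 5 lower, with a median log2 ratio of 0.14, near the 63.8% and 0.25 of all probe sets outside. Slc25a4 and Slc25a5 exchange ADP for ATP across the inner membrane. Slc25a4 had 33337, 40976, 40176 and 35824, and Slc25a5 had 11906, 15717, 20843 and 13438, so that both were lower in the Rat1-Omomer than in the Rat1-control 90 min culture. Tomm20, the import receptor of the outer membrane, had 22912, 23166, 31072 and 36911 by U21871_at. Of the regulators on the list, Esrra and Ppara were measured, and neither had a probe set above the floor on any array.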

How the data were processed

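RNA of Rat1-control and Rat1-Omomer cells at 0 and 90 min of serum was hybridized by the authors to Affymetrix rat genome arrays, 1 per condition. The deposited values are intensity values on a linear scale, average differences that the authors computed with the default settings of the GeneChip Microarray Analysis Suite, MAS 4, with negative values kept; between 24.8% and 27.7% of an array's values were below 0. Of 8799 probe sets, 59 controls were left out. Symbols came from the platform annotation, and 7 probe sets with several symbols were left out. The noise SD was estimated robustly from the negative values (their median size), the floor was 2 times that SD, and ratios of floored values were taken in 5 comparisons that share arrays. The 3-fold threshold is that of the study's methods. No test, SD between cultures or paired analysis could be made. Depth does not apply; the number of arrays limits precision.

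The members, lists and 5 EST series were chosen with earlier results of these data known. All member genes are named; 4 values are given for the brightest probe set of each complex, genes with several probe sets above the floor, probe sets at least 2-fold different at 90 min, and tissue forms. Some further values were added after they were seen, among them the dim Ndufs1, Ndufv3 and Ndufaf3 and the genes that differed at 0 min. Alternatives were floors of 524, 2096 and 1228, 1 probe set per gene, a 2-fold threshold, only ratios without a floored value, and scaling by medians or by quantile normalization. The fold calculation was checked on simulated pairs of arrays. Folds were planted there in bright probe sets only, so that differences in dim or floored values were not checked. Upstream sequences were taken from RefSeq (GRCr8), the first listed window per gene. Python 3.11.15, numpy 2.4.6, pandas 2.3.3 and matplotlib 3.10.9 were used.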

Additional observations from a re-analysis of the deposited data

Results flagged for a closer look

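The median log2 ratio of 90 min over 0 min of the members outside the 5 series had opposite signs in the cell lines, 0.12 in Rat1-Omomer and -0.04 in Rat1-control cells, a difference of 0.16. The difference was not tested, since each condition has 1 array. The medians of all probe sets outside the 5 series were 0.23 and -0.04 in the same comparisons.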

How the results depend on the processing

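All 70 medians recomputed under the alternatives stayed within the SD between probe sets of 1 gene, but some near 0 changed sign: outside the 5 series, the median of Rat1-control 90 min over 0 min went from -0.04 to 0.05 with median scaling, and that of Rat1-Omomer 90 min over 0 min from 0.12 to -0.03 with quantile normalization and with 1 probe set per gene. Of 128 recomputed counts of members past the threshold, 96 stayed within 1.5 times the reported count, and 32 did not, all of them counts of 8 or fewer. In the following, the comparisons with the Rat1-Omomer 90 min array are against Rat1-control 0 min, Rat1-Omomer 0 min and Rat1-control 90 min. With a floor of 524, the members outside past 3-fold were 1 for serum in Rat1-control cells and 1 between the lines at 0 min, and 2 and 3 were lower in the first and second of these comparisons. With the doubled floor, the 5 series had 0 members past 3-fold in Rat1-control cells at 90 min and 2, 3 and 1 lower in the 3 comparisons, and outside 0 were higher in the last. With median scaling, and also with quantile normalization, the 5 series had 0 past 3-fold in Rat1-control cells at 90 min and 2 higher in the first comparison. With members above the floor on both arrays, the 5 series had 3, 3 and 1 lower. With 1 probe set per gene, outside had 0, 0 and 0 lower, since the brighter probe set of Atp5pf is then the one at less than 3-fold. At 2-fold, serum in Rat1-control cells gave 1 outside and 2 in the 5 series, Rat1-Omomer cells at 0 min gave 3 and 2, the 3 comparisons gave 3, 5 and 3 lower and, in the first and last, 3 and 4 higher outside, and in the 5 series 8, 8 and 4 lower and, in the first, 2 higher. Of 2364 recomputed ratios of single probe sets none changed sign past 3-fold, 15 lost a 3-fold call, and 20 under 3-fold shifted by more than the SD between probe sets of 1 gene, 19 of them with another floor and 1, for Cox4i1, with quantile normalization. Cox6a2 in Rat1-control cells with serum went from -1.40 to -0.61 with the doubled floor.

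No paired analysis was possible because each condition has 1 array. Ndufs8 and Sdha on the Rat1-Omomer 90 min array are bounds set by the noise, as is Ndufa3 with the floor of that array alone, and bright members depend on the scaling. Array, culture and condition cannot be told apart, nor can the length of 4-OHT treatment or the 5 EST series and their genes. Probe sequences were not used here, so that cross-matching of family probe sets was not tested.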

Other observations

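The 7 probe sets left out for several symbols include genes of the same enzymes, and their values are given with the same order of arrays (Rat1-control 0 min, Rat1-Omomer 0 min, Rat1-control 90 min, Rat1-Omomer 90 min). The probe set annotated to Cycs among other symbols had 4196, 6081, 7355 and 8846. Atp5mc1 and Atp5mc2, isoforms of the membrane ring subunit of ATP synthase, had 13751, 19075, 18417 and 31123, and 32392, 37466, 25953 and 46353. All of these were highest on the Rat1-Omomer 90 min array. The probe set with Cox5a among its symbols had 18291, 20007, 20076 and 23545, whereas the member rc_AI104513_at for Cox5a lay under the floor on all arrays. Cox7a2 had 23096, 28592, 26844 and 36806, Ndufb4 had 20095, 25041, 17919 and 27815, and Ndufs5 had 12587, 10560, 12495 and 15807. The Ndufb4 probe set, rc_AA859957_at, belongs to the EST series given apart above, and was highest on the Rat1-Omomer 90 min array. The other probe sets left out for several symbols lie outside these series. The second symbol of each probe set leaves the gene measured unsettled.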
